A study of Homo sapiens with 24 samples.

Results

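*ANGPTL4*, *PDK4* and 8 other genes that handle fatty acids and fuel choice (*PLIN2*, *CPT1A*, *LPIN1*, *LPIN2*, *ACSL1*, *HILPDA*, *PNPLA2* and *CD36*) were followed through a time course of glucocorticoid (GC) exposure. They were chosen by name for their roles in fuel use, with earlier results of these data known. The transcript counts of each gene were summed, giving 10 genes of 33126 and 65 transcripts of 119207. The cells were A549, an established human line from a lung adenocarcinoma. They received either dexamethasone (dex), a synthetic GC, at 100 nM or the ethanol vehicle (EtOH) at 0.02% by volume, which both arms contained, for 1, 3, 5, 7, 9 or 11 h. Each of the 12 groups had 2 poly-A RNA-seq libraries, 24 in all, labelled as biological replicates. The methods describe dex cultures with a paired vehicle control, in triplicate, and 2 libraries per group were analysed here. Nothing in the labels ties a replicate number to a shared culture or day, so p-values measure only the spread between these libraries. One cell line at one dose was used, and the treatment wording in the labels gives 1 h for every library while the duration field runs from 1 to 11 h. The duration field was used here.

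GCs bind the glucocorticoid receptor (GR), which moves to the nucleus and changes the transcription of genes near its binding sites. In fasting, GCs shift tissues from glucose toward fat. *PDK4* encodes a kinase that shuts off the pyruvate dehydrogenase (PDH) complex and so the entry of glucose carbon into the citric acid cycle, and *ANGPTL4* encodes a secreted inhibitor of lipoprotein lipase, the enzyme that releases fatty acids from circulating lipoproteins. Inside the cell, fatty acids are activated to acyl-CoA by enzymes such as ACSL1, carried into mitochondria through CPT1A, or built into triglyceride and stored in lipid droplets.

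On GRCh38 the 2 genes with the longest-lasting response lie on chromosome 19 from 8363289 to 8374373 on the plus strand (*ANGPTL4*) and on chromosome 7 from 95583499 to 95596491 on the minus strand (*PDK4*). Below are the 250 bases upstream of the RefSeq start of these genes and of *PLIN2* (GRCh38.p14), shown as 3 of the 4 genes called higher at 4 or more time points. At least 89.8% of the counts of each fell on transcripts that start within 100 bases of that start, against at most 11.6% for any window of the fourth, *ACSL1*, which is not printed. Capitals mark matches on either strand to 3 short motifs. The half-site that GR recognises was searched as AGAACA. The TATA box, where the basal transcription machinery binds, was searched as TATAAA. The core of the element bound by hypoxia-inducible factors was searched as ACGTG.
ANGPTL4, chr19:8363905-8364154, plus strand: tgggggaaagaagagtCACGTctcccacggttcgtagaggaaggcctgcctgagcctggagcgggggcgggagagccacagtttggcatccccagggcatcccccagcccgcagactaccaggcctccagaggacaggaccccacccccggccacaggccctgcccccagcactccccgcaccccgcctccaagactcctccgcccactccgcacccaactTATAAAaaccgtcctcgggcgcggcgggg
PDK4, chr7:95596517-95596766, minus strand: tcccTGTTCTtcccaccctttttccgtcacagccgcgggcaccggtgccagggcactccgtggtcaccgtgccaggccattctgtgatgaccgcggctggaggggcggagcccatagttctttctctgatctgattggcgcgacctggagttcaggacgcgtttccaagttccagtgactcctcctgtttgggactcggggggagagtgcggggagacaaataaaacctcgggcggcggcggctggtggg
PLIN2, chr9:19127493-19127742, minus strand: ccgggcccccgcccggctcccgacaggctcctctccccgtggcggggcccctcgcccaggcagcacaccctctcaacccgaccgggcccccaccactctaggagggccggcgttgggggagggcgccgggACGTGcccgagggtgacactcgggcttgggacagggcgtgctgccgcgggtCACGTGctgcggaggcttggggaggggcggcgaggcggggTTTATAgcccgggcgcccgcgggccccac

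The *ANGPTL4* window held a TATA box 29 bases before the start and an ACGTG match 234 bases before it. In *PDK4* the only match was a GR half-site 246 bases before the start. The *PLIN2* window held a TATA box at 29 bases and ACGTG matches at 120, 69 and 68 bases, the last 2 overlapping on opposite strands. Of all 35116 RefSeq windows of this length, 12.4% held a GR half-site, 10.7% a TATA box and 18.5% an ACGTG match, so these short matches are common. Windows existed for 9 of the 10 genes, 21 in all, and 4 windows of 3 genes held a GR half-site. Beside *PDK4* these were *CD36* and *ACSL1*, the latter in a window near which 7.74% of its counts start. GR binding was not analysed here.

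Libraries held 6708864 to 13748598 counts, with a median of 10109393.5. CPM below are counts divided by library size and scaled by TMM factors, which correct for differences in RNA composition. Levels per kilobase are not scaled by these factors. Of the epithelial markers, the keratins *KRT8* (1431 to 5105 CPM) and *KRT18* (1744 to 5521 CPM) were abundant, while *CDH1* (28.7 to 60.3 CPM), *KRT19* (8.15 to 21.1 CPM) and *EPCAM* (4.09 to 11.1 CPM) were lower. Of the alveolar type II markers, *SFTPA1* and *SFTPA2* were at 0 in every library, *SFTPC* reached at most 0.126 CPM and *ABCA3* ranged from 23.9 to 48.5 CPM, so the surfactant proteins that define that cell type were absent or nearly so. The adipocyte markers *ADIPOQ*, *LEP* and *PLIN1* stayed at or below 0.765 CPM and *LIPE* at or below 1.34 CPM, while *CIDEC* ranged from 2.32 to 155 CPM. The macrophage markers *PTPRC*, *CSF1R* and *MARCO* stayed at or below 0.296 CPM, with *CD68* at 2.64 to 6.01 CPM and *CD14* at 0.733 to 3.60 CPM. In bulk libraries, fewer cells with a transcript and less transcript per cell cannot be told apart.

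*ANGPTL4*, *PDK4*, *ACSL1* and *PLIN2* were higher with dex at 4 or more of the 6 time points, *HILPDA* and *CPT1A* were lower at 2 and 1, and *LPIN1*, *LPIN2* and *PNPLA2* were not called at any. *CD36* had too few counts to test, leaving 9 genes tested. Calls are those of edgeR's quasi-likelihood test at a Benjamini-Hochberg adjusted p of at most 0.1 over all 15337 genes tested. At 1 h, 2 of the 9 were higher and 0 lower, where 0.626% of all genes tested were higher and 0.411% lower. At 3 h, 3 were higher and 0 lower, against 8.43% and 5.81% of all genes. At 5 h, 4 were higher and 2 lower, against 12.4% and 12.6%. At 7 h, 4 were higher and 1 lower, against 14.3% and 14%. At 9 h and again at 11 h, 4 were higher and 0 lower, against 10.1% and 9.59% at 9 h and 5.56% and 3.53% at 11 h. The median log2 fold change of the 9 genes lay between 0.10 (9 h) and 0.39 (5 h), while that of all genes lay between -0.03 and 0.01. The genes were chosen with earlier results of these data known, so these counts and medians are descriptions and not a test of the set.

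**Figure D1:**
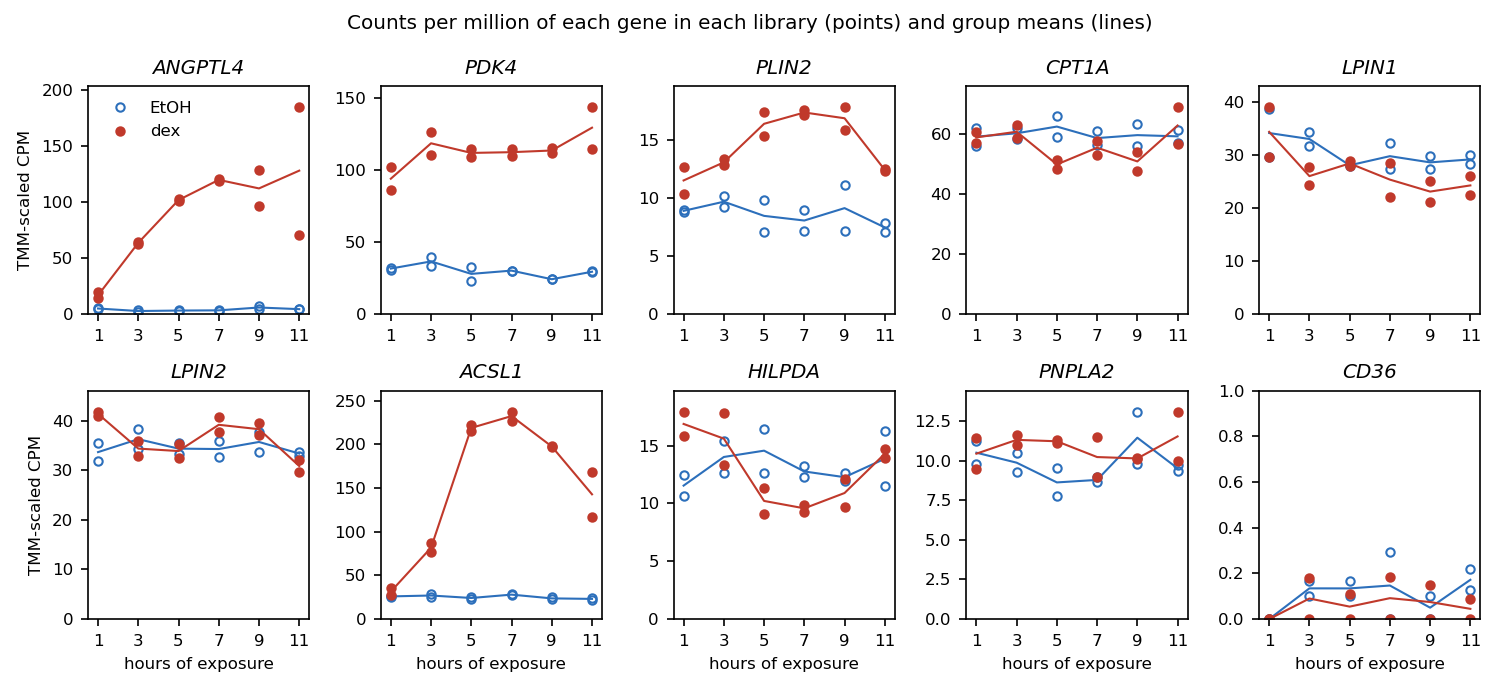
TMM-scaled CPM (vertical axis, from 0) of each gene by hours of exposure (horizontal axis). Points are single libraries (filled, dex; open, EtOH) and lines join the means of 2 libraries; the dex points of *ANGPTL4* and *PDK4* lie above every EtOH point at all 6 times, and the 2 dex libraries at 11 h stand apart for *ANGPTL4* at 71.1 and 185 CPM.

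*ANGPTL4* had the largest response of the 10 genes. With dex the 2 libraries held 14.1 and 19.8 CPM at 1 h, 62.8 and 64.7 at 3 h, 101 and 103 at 5 h, 119 and 121 at 7 h, 96.2 and 128 at 9 h, and 71.1 and 185 at 11 h. With EtOH they held 4.92 and 5.32 CPM at 1 h, 2.27 and 3.49 at 3 h, 2.76 and 3.83 at 5 h, 2.95 and 4.02 at 7 h, 4.55 and 7.50 at 9 h, and 4.41 and 4.69 at 11 h. The groups did not overlap at any time, and replicates were close from 3 to 7 h but far apart with dex at 11 h. The fold change was 3.25 at 1 h (log2 1.70, SE 0.22, adjusted p = 0.000136), 21.6 at 3 h and 34.3 at 7 h (log2 5.10, SE 0.14, adjusted p = 6.11e-28). At 11 h it was 28.0 (log2 4.81, SE 0.50, adjusted p = 0.000863). Without dex replicate 1 at 11 h the log2 fold change was 5.34 and without dex replicate 2 it was 3.96, and with no filter on low counts its adjusted p was 0.189. At 1 h, one fit over all 24 libraries gave an adjusted p of 0.15, and a fit leaving out the 4 libraries at 11 h, chosen after seeing the data, gave 1.37e-05. Of the 8 *ANGPTL4* transcripts 2 were called higher at 1 h and all 8 from 3 h to 11 h. The most counted one held 23.9% of the gene's counts. Of all 56380 transcripts tested, 243 were called in either direction at 1 h, 4016 at 3 h and 8261 at 5 h. At 7, 9 and 11 h 9102, 5843 and 2885 were called. Reads can match several transcripts of 1 gene, so these calls are not separate support.

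*PDK4* was called higher at every time point, and both dex libraries at 1 h lay below all later dex libraries. The dex libraries held 102 and 85.9 CPM at 1 h, 111 and 126 at 3 h, 109 and 114 at 5 h, 115 and 110 at 7 h, 115 and 112 at 9 h, and 144 and 115 at 11 h. The EtOH libraries held 32.4 and 30.9 CPM at 1 h, 39.5 and 33.8 at 3 h, 23.2 and 32.7 at 5 h, 30.2 and 30.3 at 7 h, 24.2 and 24.3 at 9 h, and 29.2 and 29.7 at 11 h. Every dex library lay above every EtOH library. The fold change was 2.98 at 1 h (log2 1.57, SE 0.13, adjusted p = 2.90e-07) and at its highest 4.67 at 9 h (log2 2.22, SE 0.12, adjusted p = 4.02e-08). The gene is counted on a single transcript.

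*ACSL1*, which joins fatty acids to coenzyme A, was called higher from 3 to 11 h and not at 1 h. Its dex libraries held 35.5 and 27.5 CPM at 1 h, 76.3 and 87.0 at 3 h, 223 and 215 at 5 h, 237 and 227 at 7 h, 197 and 198 at 9 h, and 168 and 117 at 11 h. Its EtOH libraries stayed between 22.2 and 28.4 CPM. The groups at 1 h lay close together without overlap, and from 3 h they were well separated. The log2 fold change was 0.29 at 1 h (SE 0.16, adjusted p = 0.806), 1.60 at 3 h (SE 0.12, adjusted p = 2.83e-11) and 3.18 at 5 h (SE 0.12, adjusted p = 2.88e-25), which is 9.04-fold, and it was 2.63 at 11 h (SE 0.19, adjusted p = 3.12e-06). At 3 h 9 of its 10 transcripts were higher, and from 5 h all 10 were. The calls over all transcripts given for *ANGPTL4* are the background, and transcripts of 1 gene are again not separate support.

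*PLIN2*, a coat protein of lipid droplets, rose by less. Its dex libraries held 12.6 and 10.3 CPM at 1 h, 13.3 and 12.8 at 3 h, 17.4 and 15.3 at 5 h, 17.5 and 17.2 at 7 h, 17.8 and 15.8 at 9 h, and 12.5 and 12.3 at 11 h. Its EtOH libraries ranged from 7.05 to 11.1 CPM. The dex libraries were above the EtOH libraries of the same time throughout, at 1 and 3 h without a call. The share of all genes without such overlap is not given here. The log2 fold change was 0.39 at 1 h (adjusted p = 0.797), 0.44 at 3 h (adjusted p = 0.122), 0.97 at 5 h (SE 0.19, adjusted p = 0.000104), 1.11 at 7 h (SE 0.17, adjusted p = 1.21e-06), 0.88 at 9 h (SE 0.21, adjusted p = 0.011) and 0.73 at 11 h (SE 0.21, adjusted p = 0.0641). The call at 11 h was lost without EtOH replicate 1 (adjusted p = 0.609), without EtOH replicate 2 (0.381) and with DESeq2 (0.276).

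**Figure D2:**
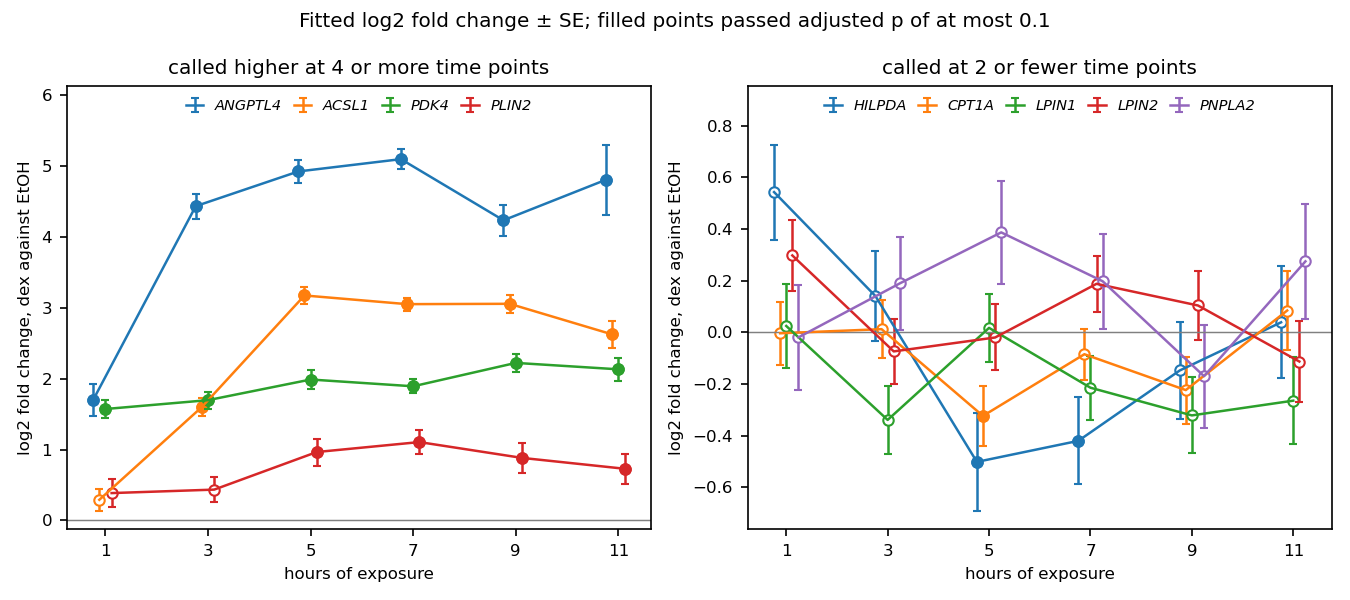
Fitted log2 fold change of dex against EtOH (vertical axis; the scales of the panels differ) by hours of exposure for the 9 tested genes. Bars are 1 SE and filled points passed an adjusted p of at most 0.1; *ANGPTL4* runs from 1.70 to 5.10 and *PDK4* from 1.57 to 2.22, while the genes on the right lie between -0.50 and 0.54.

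The change in each gene's dex effect between time points was tested in one fit over 24 libraries. The changes were not compared between genes. Of all genes tested, 4.88% changed their dex effect between 1 and 3 h, 6.94% between 3 and 5 h and 2.91% between 5 and 11 h. The dex effect of *ANGPTL4* grew by 2.74 on the log2 scale from 1 to 3 h (SE 0.67, adjusted p = 0.0424). That of *ACSL1* grew by 1.31 from 1 to 3 h (SE 0.20, adjusted p = 0.000127) and by 1.57 from 3 to 5 h (SE 0.19, adjusted p = 8.45e-06). For *PDK4* the difference from 1 to 3 h was 0.12 (SE 0.19, adjusted p = 0.797), and for *PLIN2* it was 0.05 (SE 0.27, adjusted p = 0.958). None of the 9 genes was called between 5 and 11 h by edgeR's quasi-likelihood test, and 0 by DESeq2, with 2 at an unadjusted p under 0.05. Of these, *ACSL1* had a difference of -0.55 (SE 0.20, unadjusted p = 0.00921, adjusted p = 0.192). Leaving out dex replicate 1 at 11 h made that -0.84, and the difference for *CPT1A* was then 0.54. The *ANGPTL4* step was lost without dex replicate 1 at 1 h (adjusted p = 0.166), dex replicate 1 at 3 h (0.102), EtOH replicate 2 at 1 h (0.196) or EtOH replicate 1 at 3 h (0.175), and was called in the fit without the 11 h libraries (4.14e-06).

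*CPT1A*, the carnitine palmitoyltransferase at the outer mitochondrial membrane that limits fatty acid oxidation, was lower with dex at 5 h, when dex libraries held 51.1 and 48.4 CPM and EtOH libraries 65.9 and 58.8. The 2 groups did not overlap, which was also so at 9 h without a call, and the log2 fold change was -0.32 (SE 0.12, adjusted p = 0.0434). At the other 5 time points it lay between -0.22 and 0.08 with no call. The call at 5 h was lost with DESeq2 (adjusted p = 0.169) and with single transcripts (0.195). It was also lost without dex replicate 2 (log2 fold change -0.28) and without EtOH replicate 1 (-0.24). At 9 h the log2 fold change without EtOH replicate 1 was -0.30.

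*HILPDA*, a lipid droplet protein known as a target of hypoxia signalling and an inhibitor of triglyceride lipase, was lower with dex at 5 and 7 h. The dex libraries held 15.8 and 17.9 CPM against 12.4 and 10.6 at 1 h, 11.4 and 9.07 against 16.5 and 12.7 at 5 h, and 9.26 and 9.89 against 13.3 and 12.3 at 7 h. The groups did not overlap at these 3 times, of which 1 h was not called, and they overlapped at 3, 9 and 11 h. The log2 fold change was 0.54 at 1 h (SE 0.18, adjusted p = 0.359), -0.50 at 5 h (SE 0.19, adjusted p = 0.0542) and -0.42 at 7 h (SE 0.17, adjusted p = 0.0681). Without dex replicate 1 the log2 fold change at 1 h was 0.64. The call at 5 h was lost with DESeq2 (0.303), without dex replicate 2 (0.344) and without EtOH replicate 1 (0.424). The call at 7 h was lost with DESeq2 (0.429), in one fit over 24 libraries (0.185), with single transcripts (0.259), and without dex replicate 1 (0.346), dex replicate 2 (0.187) or EtOH replicate 1 (0.194).

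*LPIN1* and *LPIN2* encode lipins, phosphatases that make the diacylglycerol used for triglyceride. *LPIN1* ranged from 21.2 to 39.1 CPM with dex and 27.4 to 38.6 CPM with EtOH, and its largest log2 fold change was -0.34 at 3 h (SE 0.13, adjusted p = 0.111). *LPIN2* ranged from 29.6 to 41.8 CPM with dex and 31.8 to 38.3 CPM with EtOH, with its largest log2 fold change of 0.30 at 1 h (SE 0.14, adjusted p = 0.693). *PNPLA2*, which encodes the lipase that starts triglyceride breakdown, ranged from 8.98 to 13.1 CPM with dex and 7.74 to 13.1 CPM with EtOH, and its largest log2 fold change was 0.39 at 5 h (SE 0.20, adjusted p = 0.184). None of the 3 genes passed the threshold at any time, which does not show that they were unaffected. The groups of *LPIN1* did not overlap at 3, 9 and 11 h, and those of *LPIN2* at 1, 7 and 11 h. Those of *PNPLA2* did not overlap at 3, 5, 7 and 11 h. With 2 libraries per group a lack of overlap thus also occurred without a call, and its share over all genes is not given here. The log2 fold change of *LPIN1* was -0.44 at 3 h without dex replicate 2 and -0.37 at 11 h without dex replicate 1. Without EtOH replicate 2 that of *LPIN1* was -0.32 at 7 h and -0.39 at 9 h. That of *LPIN2* was 0.26 at 7 h without EtOH replicate 1, and that of *PNPLA2* was 0.46 at 11 h without dex replicate 1. *CD36*, a fatty acid receptor at the cell surface, had 21 counts in all 24 libraries and at most 0.294 CPM in any.

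In EtOH cells none of the 9 genes was called over the 6 time points, against 3.33% of all genes. The lowest unadjusted p were 0.00762 for *ANGPTL4* (adjusted p = 0.142) and 0.0093 for *PDK4* (adjusted p = 0.153) by edgeR's quasi-likelihood test, the 2 genes with an unadjusted p under 0.05, and DESeq2 also called 0. With no filter on low counts both were called (adjusted p = 0.0133 and 0.0213), *ANGPTL4* was called without EtOH replicate 1 at 9 h (0.0195) and *PDK4* without EtOH replicate 2 at 5 h (0.0623). Over all genes, no filter on low counts raised the calls over time in EtOH from 510 of 15337 to 1767 of 25493. Vehicle means of *ANGPTL4* ran from 2.88 CPM at 3 h to 6.02 CPM at 9 h, and those of *PDK4* from 24.3 CPM at 9 h to 36.6 CPM at 3 h. For the other 7 genes the highest vehicle mean was at most 1.33 times the lowest.

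Levels of different genes were compared per kilobase of transcript, from counts over library totals without TMM factors. They are approximate, since how reads matching several transcripts were placed is not known. By this measure *CPT1A* was the most abundant of the 10 genes in EtOH cells, with a median of 20.1 CPM per kb over 12 libraries (17.9 to 23.4). *HILPDA* followed at 11.4 (9.93 to 15.4), then *ACSL1* at 9.11 (7.50 to 11.0) and *PDK4* at 8.53 (6.60 to 10.9), and the ranges of these 3 overlapped. *ANGPTL4*, at 2.69 (1.71 to 5.16), was by its median above *CD36* alone. Its range overlapped those of *PNPLA2* (3.20 to 5.51) and *PLIN2* (4.30 to 7.18). With dex, *ANGPTL4* had a median of 68.2 CPM per kb (11.1 to 116) and *ACSL1* 64.7 (10.3 to 85.4), with overlapping ranges. *PDK4* came next at 30.9 (23.6 to 39.7) and *CPT1A* at 18.0.

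Other genes of the same pathways were counted from 7 lists of 83 genes, also chosen with earlier results known, so the counts are descriptions. Of the 83, 68 could be tested. Of the 68 tested, 32 were higher at 1 or more time points, 5 were lower and 31 were never called. Over all 15337 genes tested, 22.6% were higher and 23.3% lower at 1 or more time points, and this background holds for each list count that follows. In the list of the carnitine shuttle and beta-oxidation, 7 of 20 were higher and 2 lower, the latter being *ACAA2*, a thiolase (-0.43 at 5 h, adjusted p = 0.0117), and *ECI2* (-0.40 at 3 h, adjusted p = 0.064), both named after their values were seen. *SLC22A5*, the carnitine importer, was higher at all 6 times, with a log2 fold change of 0.72 at 1 h (adjusted p = 0.00271) and 1.75 at 9 h (adjusted p = 1.03e-05). *ECI1*, an isomerase for unsaturated fatty acids, was higher at 3, 5 and 7 h, with 1.18 at 5 h (SE 0.14, adjusted p = 5.20e-09).

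Of genes for fatty acid uptake, binding and activation, 4 of 9 were higher and 0 lower. The 3 named ones are acyl-CoA synthetases like *ACSL1*. *ACSL5* was higher from 5 to 11 h (log2 3.57 at 5 h, SE 0.35, adjusted p = 3.37e-11), *ACSL3* from 3 to 11 h (0.82 at 9 h, adjusted p = 0.000128) and *ACSL4* from 5 to 9 h (0.75 at 5 h, adjusted p = 1.84e-07). At 5 h *ACSL5* held 6.77 and 8.73 CPM with dex against a low level of 0.614 and 0.666 CPM with EtOH. In glycerolipid synthesis 6 of 9 were higher and 1 lower (*DGAT2*, -1.34 at 9 h, adjusted p = 0.0942, named after its value was seen). The level of *DGAT2* was low, with 0.765 and 1.68 CPM with dex and 2.15 and 1.75 CPM with EtOH at 5 h. The higher ones included *LPIN3*, the third lipin, from 7 to 11 h (0.73 at 7 h, adjusted p = 0.000409), and *GPAT3*, an acyltransferase, from 3 to 9 h (0.63 at 7 h, adjusted p = 1.31e-05). *AGPAT1*, the next acyltransferase, was higher at 5 and 7 h (0.45 at 5 h, adjusted p = 0.0295).

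Of genes for the droplet coat and lipolysis, 6 of 10 were higher and 1 lower, *LIPE*, the hormone-sensitive lipase (-2.26 at 9 h, adjusted p = 0.0264), named after its value was seen and at most 1.34 CPM in any library. *CIDEC*, which fuses lipid droplets and is best known from adipocytes, had log2 fold changes of 0.73 at 1 h (adjusted p = 0.362), 4.12 at 3 h and 5.32 at 7 h (SE 0.14, adjusted p = 6.11e-28). *CIDEC* was the one gene of 5 on the adipocyte list to reach more than 1.34 CPM. *G0S2*, an inhibitor of PNPLA2, was higher at 5 and 7 h (2.39 at 7 h, SE 0.53, adjusted p = 0.000576). The level of *G0S2* was low, with 2.11 and 2.11 CPM with dex and 0.393 and 0.392 CPM with EtOH at 7 h. *PLIN3*, another coat protein, was higher at 5, 7 and 11 h (0.93 at 5 h, adjusted p = 5.33e-07).

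In the PDH complex with its kinases and phosphatases, 6 of 12 were higher and 1 lower. *PDP1*, the phosphatase that opposes the PDK kinases, was higher at 3, 5, 9 and 11 h (0.71 at 3 h, adjusted p = 0.00169). *PDK3*, a kinase of the same family as *PDK4*, was lower at 5, 7 and 11 h, with -0.70 at 11 h (SE 0.18, adjusted p = 0.0335). *PDHA1*, a subunit of the complex, was higher at 5 and 7 h (0.31 at 5 h, adjusted p = 0.034). Of 7 PPAR receptors and coactivators, 3 were higher, and *PPARGC1B*, a coactivator of mitochondrial genes, was higher from 3 to 11 h (1.98 at 5 h, SE 0.14, adjusted p = 3.44e-15). The other 2 were *PPARA* (0.62 at 3 h, adjusted p = 0.0906) and *RXRA* (0.65 at 7 h, adjusted p = 0.0175), named after their values were seen. In the list of the ANGPTL family and lipoprotein lipase 1 of 10 genes could be tested, *LMF1*, a factor that matures the lipase, and it was never called.

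**Figure D3:**
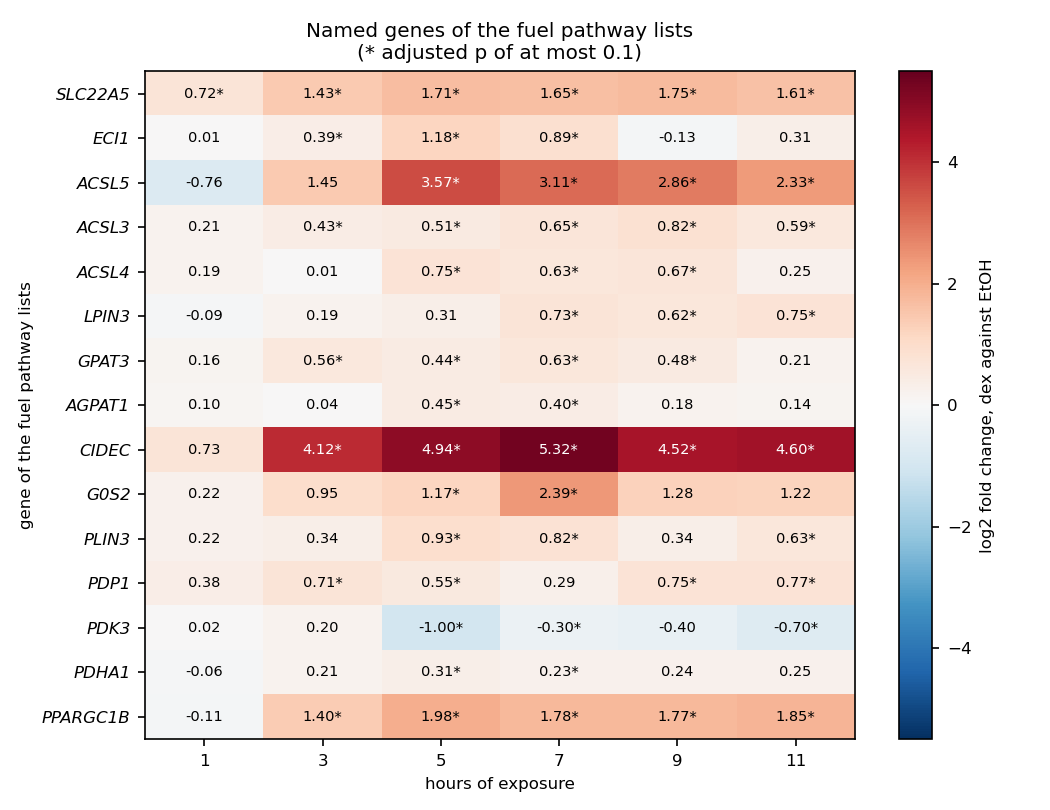
Log2 fold change of dex against EtOH (colour and printed value) for the named pathway genes (vertical axis) by hours of exposure (horizontal axis). Asterisks mark an adjusted p of at most 0.1; *CIDEC* reaches 5.32 at 7 h, and *PDK3* is the one gene shown that was called lower.

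**Figure D4:**
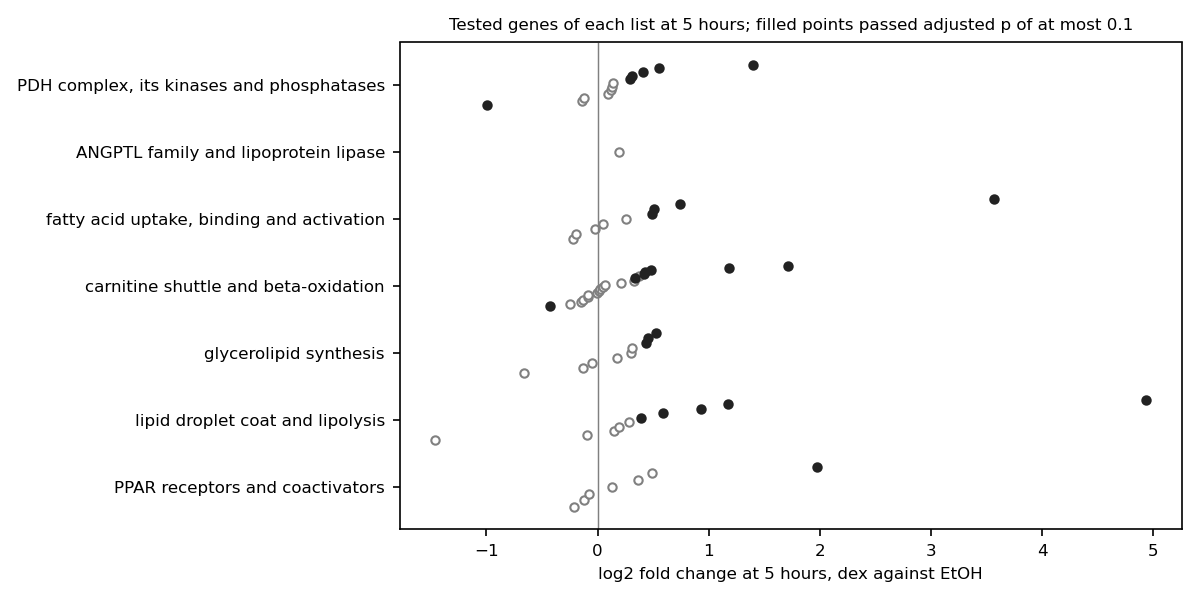
Log2 fold change at 5 h (horizontal axis) of every tested gene in each of the 7 lists (vertical axis; height within a list orders the genes). Filled points passed an adjusted p of at most 0.1; list medians at 5 h lie between 0.06 and 0.33, against 0.01 for all genes.

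Among the 5 genes whose log2 CPM over the 24 libraries ran most like *ANGPTL4*, of 10657 compared, were *TNS4* (Pearson's r 0.987), *SHROOM3* (0.986) and *THBD* (0.981). Those most like *PDK4* were *BIRC3* (0.990), *DUSP1* (0.984), *CAVIN2* (0.984), *ZFP36* (0.981) and *SYBU* (0.980). These are descriptions, since all the points share the contrast between dex and EtOH libraries.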

How the data were processed

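RNA was measured in 24 A549 libraries. Reads were single-end, 50 bases long. The authors aligned them with Bowtie to the GENCODE transcripts of hg19 and deposited raw read counts per transcript from samtools idxstats; the submitters' processing notes also name SAMtools and hg19. How reads matching several transcripts were placed, and whether strand was used, is not given in the sources used here, so counts of single transcripts are uncertain. Transcripts were joined to genes by identifier without version through GENCODE 29, which placed 110261 of 119207 rows and 94.1% of counts. The row for unplaced reads held 0 counts. Lengths and gene coordinates are those of GENCODE 29 (GRCh38).

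Counts were summed per gene and tested with edgeR 4.0.16 in R 4.3.3 (TMM factors over 24 libraries, filterByExpr, robust quasi-likelihood F-test, Benjamini-Hochberg adjustment over 15337 genes, threshold 0.1, as in the study's false discovery rate of 10%). Each time point was fitted by itself, 2 against 2, and changes of the dex effect in one fit over 24 libraries. SE was derived from each log2 fold change and its F statistic. The code was tested on simulated data. Alternatives were DESeq2 1.42.0, its size factors, other filters, single transcripts, a threshold of 0.05, one fit, the replicate number as a block and leaving out each library. Library depth and 2 libraries per group limit the precision.

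All 10 genes were named, with up to 3 genes from each pathway list called in one direction at 2 or more consecutive times with the largest mean absolute log2 fold change, and the 5 genes most correlated with *ANGPTL4* and with *PDK4* above a mean of 5 CPM; 3 genes that this rule names are not reported here. The genes and lists were chosen with earlier results of these data known. Promoter windows came from RefSeq.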

Additional observations from a re-analysis of the deposited data

Results flagged for a closer look

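The dex effect on 2 of the genes differed between time points by a test of the difference itself, edgeR's quasi-likelihood test in one fit over 24 libraries. Of all genes tested, 4.88% changed their dex effect between 1 and 3 h and 6.94% between 3 and 5 h. For *ANGPTL4* the log2 fold change was 2.74 larger at 3 h than at 1 h (adjusted p = 0.0424). With single libraries left out this difference lay between 2.49 and 3.11, and the call was lost in some of these fits, as given above. For *ACSL1* it was 1.31 larger at 3 h than at 1 h (adjusted p = 0.000127) and 1.57 larger at 5 h than at 3 h (adjusted p = 8.45e-06). Dex libraries lay above EtOH libraries in both replicates at each of these times. Groups of 2 libraries are too small for a test of outlying libraries.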

How the results depend on the processing

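Of 945 single values compared between the reported analysis and an alternative, 911 kept their side of the threshold (878 with the same sign and 33 with the other sign but no call under either), 22 lost a call, 12 gained one and 0 reversed a call. The number of the genes called at 1 h fell from 2 to 1 in one fit over 24 libraries. Over all 15337 genes it rose from 159 to 192. Leaving out one library at a time gave 1 to 2 genes whose dex effect changed from 1 to 3 h, 0 to 2 from 5 to 11 h and 0 to 1 over time in EtOH, while the number of all genes called ran from 336 to 1066, 194 to 971 and 20 to 2072. Over time in EtOH, the count rose from 0 to 2 with no filter on low counts and to 1 with the replicate block. Over all genes, 510 of 15337 were called in the reported fit, 1767 of 25493 with no filter and 440 of 15337 with the block. The cause of these changes was not tested. Libraries with the same replicate number correlated in their deviations by -0.07 to 0.16, so the numbers were not taken as pairs, and the replicate block moved no other count by over 1.5 times (3, 3, 6, 5, 5 and 4 genes called at 1 to 11 h). Over all 15337 genes the reported fits gave 159, 2184, 3834, 4342, 3021 and 1394 calls at 1 to 11 h. The replicate block gave 579, 1857, 3976, 4467, 4345 and 1766. Under the replicate block *HILPDA* was also called at 1 h (adjusted p = 0.0367) and *LPIN1* at 9 h (0.0844). Spread was estimated across genes because each group had 2 libraries, and small changes in genes near 10 CPM could be missed at this depth.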
